A study of Mus musculus with 6 samples.

Results

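The 42 genes described here encode proteins of homologous recombination, the Fanconi anaemia pathway, the replication checkpoint, mismatch and base repair, and end joining. They were picked by gene symbol, with earlier results of these data known. All 42 had a row among the 20066 genes of the deposited RNA-seq table. The libraries were made from total RNA of primary cardiomyocytes (CMs) isolated from C57BL/6 mice at postnatal days 0–1 and kept in culture with a membrane-permeable form of α-ketoglutarate for 96 h (αKG, 100 µM per the labels; the study's methods name an octyl ester at a higher concentration) or with the solvent dimethylsulfoxide (DMSO). Both groups had 3 libraries, and nothing in the labels says whether these came from separate litters. In its imaging methods the study counts a single isolation from pooled neonatal hearts as a sample, without naming the RNA libraries. The p-values measure the spread between these cultures. The study asked whether αKG, a Krebs cycle intermediate and co-substrate of histone demethylases, keeps CMs immature and proliferating. Values are normalized counts, that is, reads per gene after scaling by library size factors and rounding.

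Homologous recombination repairs a broken chromosome by copying the intact sister, and is used in S and G2 phase. Ends are first resected by nucleases, and BRCA1–BARD1, PALB2 and BRCA2 then prepare the resected strand for pairing with the sister. The Fanconi pathway removes crosslinks between the DNA strands by ubiquitylating the FANCD2–FANCI pair, and the ATR–CHK1 checkpoint restrains the cell cycle when forks stall. Many of these genes are transcribed mainly in cycling cells under E2F factors, whereas others, such as those for the Ku proteins, are transcribed in resting cells too. Most CMs leave the cell cycle shortly after birth.

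To show what the genes share in sequence, RefSeq promoter windows (GRCm38.p6, 250 bases before to 50 bases after the start) were searched on both strands for 4 E2F-type words, namely TTCCCGC, the word TTGGCGC, the word TTCGCGC and the word TTGCCGC. Windows were found for 33 of the 42 genes. *Exo1*, *Fancd2*, *Nbn*, *Prkdc*, *Rad50*, *Rad54b*, *Rbbp8*, *Tipin* and *Xrcc2* had no entry. At least 1 word was present, in any window of the gene, in 19 of the 33 (57.6%), against 18.3% of the 12289 genes of the table that have a window. A match is a description of letters and not a binding site. The 4 stretches below lie before the start and outside annotated exons, with the E2F-type word (or its reverse complement) in capitals. They show the word in 3 genes that rose under αKG and in *Rad51c*, which did not pass the test. Stretches with a word before a RefSeq start were also found for *Fancb* and *Lig4*, and neither gene passed.

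*Brca2* (chr5:150522436-150522475, + strand): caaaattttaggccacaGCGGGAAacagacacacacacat
*Bard1* (chr1:71103158-71103197, − strand): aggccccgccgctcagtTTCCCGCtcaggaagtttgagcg
*Chek2* (chr5:110839814-110839853, + strand): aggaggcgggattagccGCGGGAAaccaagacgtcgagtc
*Rad51c* (chr11:87405000-87405039, − strand): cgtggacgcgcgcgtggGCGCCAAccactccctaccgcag

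Genes that rose were found both with and without the word. Of the 19 genes with it, 10 rose, with a median log2 fold change of 0.85 and a range from -0.52 to 1.59. Of the 14 without it, 4 rose, with a median of 0.48 and a range from -0.20 to 1.95. A second element was the CHR of late cell cycle genes (the word TTTGAA or the word TTCGAA). It was present in 6 of the 33 (18.2%), against 16.7% of the genes of the table. Of these 6, 4 rose, and of the 27 without it 10 rose. It lay before the start of *Neil3*, a DNA glycosylase gene that rose about 3-fold.

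*Neil3* (chr8:53639246-53639284, − strand): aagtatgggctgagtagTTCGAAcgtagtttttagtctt

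Estimated reads in genes lay between 3726101 and 4428221 per library. αKG replicate 3 resembled the DMSO libraries more than its own group across all genes, with correlations of log2 values across genes of 0.977 to 0.980 with DMSO and of 0.962 and 0.963 with αKG replicates 1 and 2. In the 42 genes it stood apart in another way, since it held the highest of all 6 values in 31 of them (73.8%), against 13.0% of all genes. DMSO replicate 3 had the lowest DMSO value in 34 (81.0%, against 28.03% of all genes) and DMSO replicate 1 the highest in 33 (78.6%, against 30.2%). The median difference between DMSO replicates 1 and 3 was 0.43 on the log2 scale over the 42 genes and 0 over all genes. Counts are therefore given with and without αKG replicate 3, as are the genes whose call or size depends on it. Summed endothelial markers were 2247 to 2340 in DMSO and 1552 to 1697 in αKG, with 7 of 10 lower in every αKG library. Summed epicardial markers were 483 to 519 in DMSO and 1279, 1238 and 456 in αKG replicates 1 to 3, and fibroblast markers 6787 to 7041 against 12279, 11948 and 6533. Cardiomyocyte markers summed to 75542 to 78250 and 80135 to 111618, mostly through *Ttn* (51569, 54216 and 53157 against 80306, 84136 and 55569). Of the 10, 3 were higher and 1 was lower in every αKG library, and their median log2 fold change was 0.08. Mural markers summed to 4306 to 4415 and 4613 to 5027, but single mural genes ran from -1.25 to 3.17 in log2 fold change. Among these 10 markers, 2 were higher and 1 was lower in every αKG library. The 4 macrophage markers with a row summed to at most 41. The part of these cell types in the results below was not tested, and in bulk RNA fewer cells of a type cannot be told apart from less RNA per cell.

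Which of the 42 genes differ between αKG-treated and control CMs was asked with limma on log2(value + 1) over all genes. With p-values adjusted by the Benjamini-Hochberg method and a threshold of 0.05, 17 of the 42 rose (40.5%), against 2.83% of all genes, and 0 fell, against 0.952%. Without adjustment 29 were higher with a p under 0.05 (69.0%, against 15.7%) and 1, *Lig4*, was lower, against 12.4% of all genes. The log2 fold change was positive in 38 genes, with a median of 0.63, against 0.04 over all genes. All 3 αKG values lay above all 3 DMSO values in 28 genes (66.7%, against 13.7%) and below them in 1, *Xrcc5* (against 14.6% of all genes). All 17 genes that rose were among these 28, and their changes ran from 0.46 (*Rbbp8*) to 1.95 (*Rad51b*).

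The calls, like those over all genes, depended on single libraries. Without DMSO replicate 2 or 3, or αKG replicate 1 or 2, limma called 0 of the 42 and 3, 4, 0 and 0 of all genes (0.015%, 0.0199%, 0% and 0%). Of the 42, 22, 24, 25 and 29 then had an unadjusted p under 0.05, against 17.8%, 16%, 16.6% and 16.2% of all genes. The log2 fold changes of the 17 were 0.74 to 1.19 times their values with all libraries in these 4 fits. Without DMSO replicate 1, 6 of the 42 were called, against 0.758% of all genes.

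Without αKG replicate 3 all 17 were kept, 20 rose (47.6%, against 19.3% of all genes) and 3 fell (7.14%, against 17.9%). The 3 further genes that rose were *Atr* (0.64, limma adjusted p = 0.000801), *Fancg* (0.74, limma adjusted p = 0.00973) and *Xrcc6* (0.23, limma adjusted p = 0.0265). Those that fell were *Lig4*, *Nbn* (-0.35, limma adjusted p = 0.0384) and *Xrcc5* (-0.22, limma adjusted p = 0.0389). In 15 genes the log2 fold change moved by over 1.5 times or changed sign without that library, and of these only *Nbn* then passed. They went to lower values in *Exo1* (0.49), *Clspn* (0.44), *Xrcc3* (0.27), *Rad51c* (0.27), *Xrcc2* (0.26), *Mre11a* (0.20), *Tipin* (0.15), *Fancm* (0.12) and *Msh6* (0.05). Those of *Rad50* (-0.0018), *Timeless* (-0.02), *Fancc* (-0.02), *Parp1* (-0.16) and *Chek1* (-0.26) were then below 0.

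In limma without the trend of the variance with the mean, 0 of the 42 passed and 25 had an unadjusted p under 0.05. Of all 20066 genes, 27 passed in that fit and 4160 had an unadjusted p under 0.05.

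**Figure D1:**
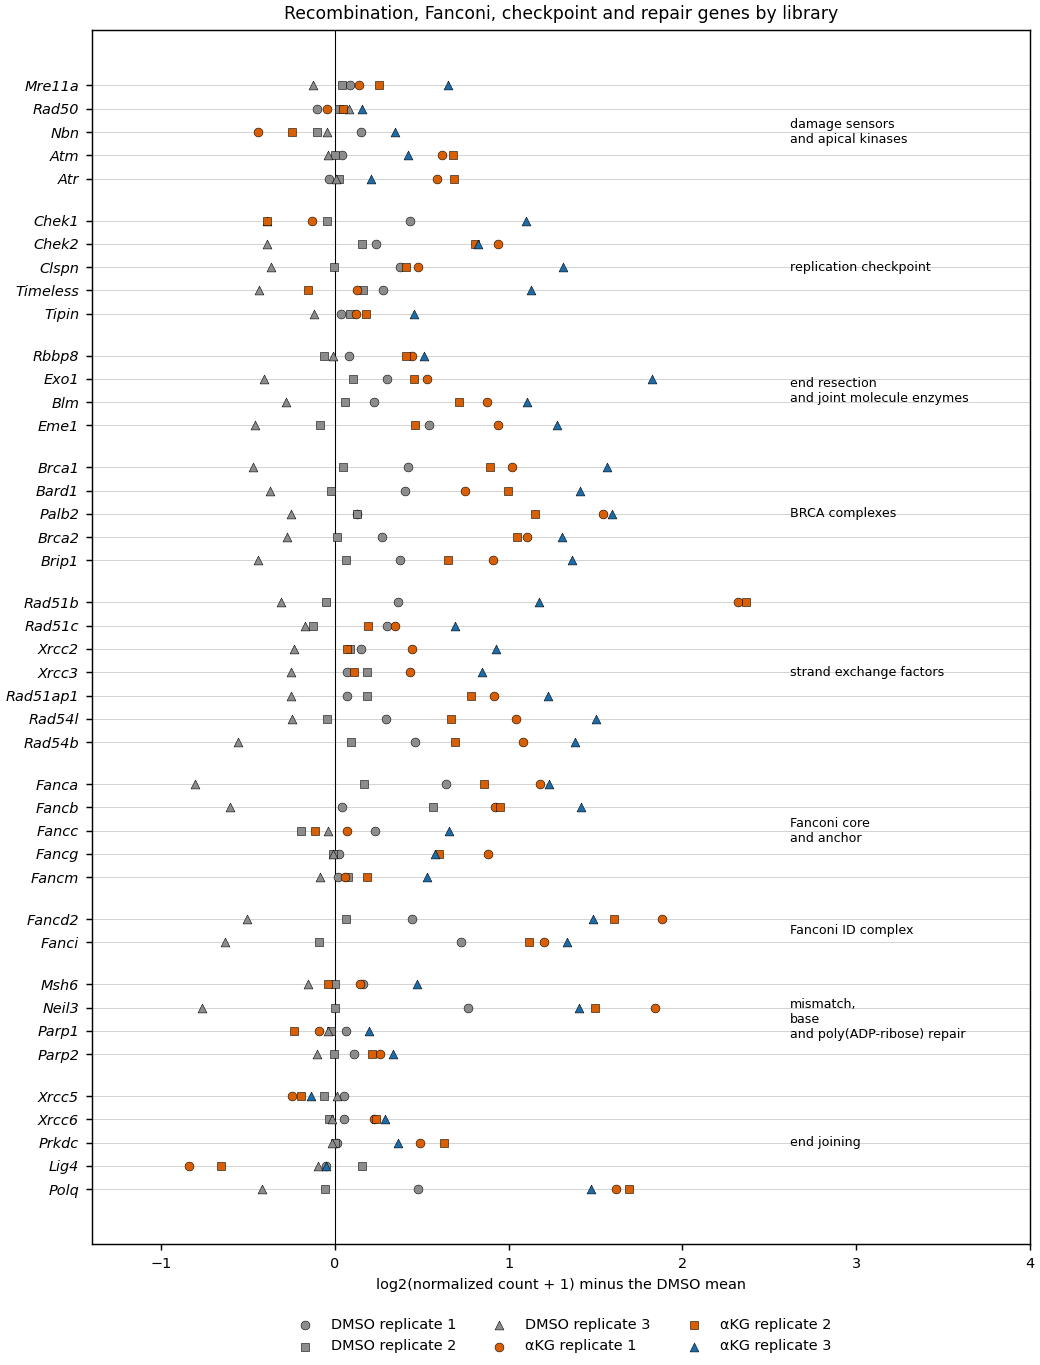
Each row is a gene, grouped by role, and each point is 1 library, plotted as log2(normalized count + 1) minus the DMSO mean of that gene (grey, DMSO; orange, αKG replicates 1 and 2; blue, αKG replicate 3). The blue triangles lie farthest right in 31 of the 42 rows, and in *Chek1*, *Timeless* and *Exo1* they stand far from the orange points.

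All 5 genes of the BRCA group rose, by 1.97-fold to 2.69-fold, and none of them overlapped between the groups. *Brca1*, a ubiquitin ligase subunit that promotes resection and recombination (GRCm38 chromosome 11, 101488764 to 101551955), was at 244, 188 and 131 normalized counts across DMSO replicates 1 to 3, and at 370, 338 and 541 across the αKG replicates in the same order. The group means were 188 ± 56.5 and 416 ± 109 (SD, n = 3 each). On the log2 scale the rise was 1.16 ± 0.23 (SE; limma adjusted p = 0.0357). αKG replicate 3 was the highest library, and the spread within DMSO was wider than the gap between the highest DMSO and the lowest αKG value. *Bard1*, its obligate partner, had 124, 92 and 72 against 158, 188 and 251 (1.05 ± 0.22, limma adjusted p = 0.0389).

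*Brca2*, which encodes a core mediator of recombination (chromosome 5, 150522630 to 150570329), had the smallest adjusted p of all 42 genes. Its values were 358, 299 and 245 in DMSO and 639, 614 and 736 in αKG (1.15 ± 0.13 on the log2 scale, limma adjusted p = 0.00624). The lowest αKG value was thus well above the highest DMSO value. *Palb2*, the bridge between BRCA1 and BRCA2 (chromosome 7, 122107262 to 122132985), had 29, 29 and 22 against 79, 60 and 82 (1.43 ± 0.22, limma adjusted p = 0.0159). *Brip1*, a helicase that binds BRCA1, had 133, 107 and 75 against 193, 161 and 265 (0.98 ± 0.23, limma adjusted p = 0.0495), and its call was kept in only 5 of 16 alternatives, against 10 of 16 for *Brca2*.

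Among the strand exchange factors 3 of 7 genes rose. These were *Rad51b*, *Rad51ap1* and *Rad54l*. *Rad51b*, whose product acts in a complex early in strand exchange (chromosome 12, 79297282 to 79814690), had the largest fold change and the lowest level of the 42. Its normalized counts were 7, 5 and 4 without αKG and 30, 31 and 13 with it (1.95 ± 0.41, limma adjusted p = 0.0415), and the fewest estimated reads in a library were 4. αKG replicate 3 lay between the DMSO libraries and the other 2 αKG libraries, unlike in most of the 42 genes.

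*Rad51ap1*, whose protein stimulates strand pairing, had 73, 79 and 58 against 132, 120 and 164 (0.98 ± 0.17, limma adjusted p = 0.0278). *Rad54l*, a DNA translocase of strand exchange, had 114, 90 and 78 against 192, 148 and 265 (1.07 ± 0.22, limma adjusted p = 0.0365). *Rad54l* shares 15.4% of its exon bases with *Lrrc41* on the other strand. Its relative *Rad54b* had 70, 54 and 34 against 108, 82 and 133 (1.05 ± 0.27), a difference of nearly the same size that did not pass (limma adjusted p = 0.0603). Of its annotated exon bases 35.9% are shared with *Fsbp* and a further transcript, and the authors left out reads that overlapped several genes.

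The strand exchange genes *Rad51c*, *Xrcc2* and *Xrcc3*, did not pass, and in each the groups overlapped. *Rad51c* had 92, 68 and 66 against 95, 85 and 121 (0.41 ± 0.19, limma adjusted p = 0.191). *Xrcc2* had 110, 105 and 84 against 135, 104 and 189, and *Xrcc3* 34, 37 and 27 against 44, 35 and 59. In both, αKG replicate 2 lay inside the DMSO range and αKG replicate 3 was the highest library.

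The FANCD2–FANCI pair, the substrate of the Fanconi ubiquitin ligase, rose in full. *Fancd2* (chromosome 6, 113531682 to 113597017) had 86, 66 and 44 in DMSO and 235, 194 and 178 in αKG, a rise of 1.66 ± 0.23 on the log2 scale (limma adjusted p = 0.0101). Here αKG replicate 3 was the lowest of the αKG libraries and still above 2 times the highest DMSO value. *Fanci* had 112, 63 and 43 against 156, 147 and 171 (1.22 ± 0.29, limma adjusted p = 0.049). *Fanci* shares 15.95% of its exon bases with *Polg* on the other strand, and no source says that reads were assigned by strand.

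Of the genes for the Fanconi core complex and its anchor 0 of 5 passed. At an unadjusted p under 0.05, 3 of them were higher, against 15.7% of all genes. *Fanca* and *Fancb*, for core subunits, had differences of about the size of *Bard1* with a wider spread. *Fanca* had 78, 56 and 28 against 114, 91 and 118 (1.09 ± 0.32, limma adjusted p = 0.0781), and *Fancb* 24, 35 and 15 against 45, 46 and 64 (1.10 ± 0.31, limma adjusted p = 0.0743). In both, the groups did not overlap, and the DMSO libraries differed among themselves by over 2 times. *Fancg* had 42, 41 and 41 against 77, 63 and 62 (0.68 ± 0.18, limma adjusted p = 0.0603).

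*Fancc* and *Fancm* overlapped between the groups. *Fancm*, a DNA translocase that recruits the core complex, had 318, 331 and 296 against 327, 358 and 454, and *Fancc* 46, 34 and 38 against 41, 36 and 62 (0.20 ± 0.25, limma adjusted p = 0.609). In *Fancc* αKG replicates 1 and 2 lay within the DMSO range.

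**Figure D2:**
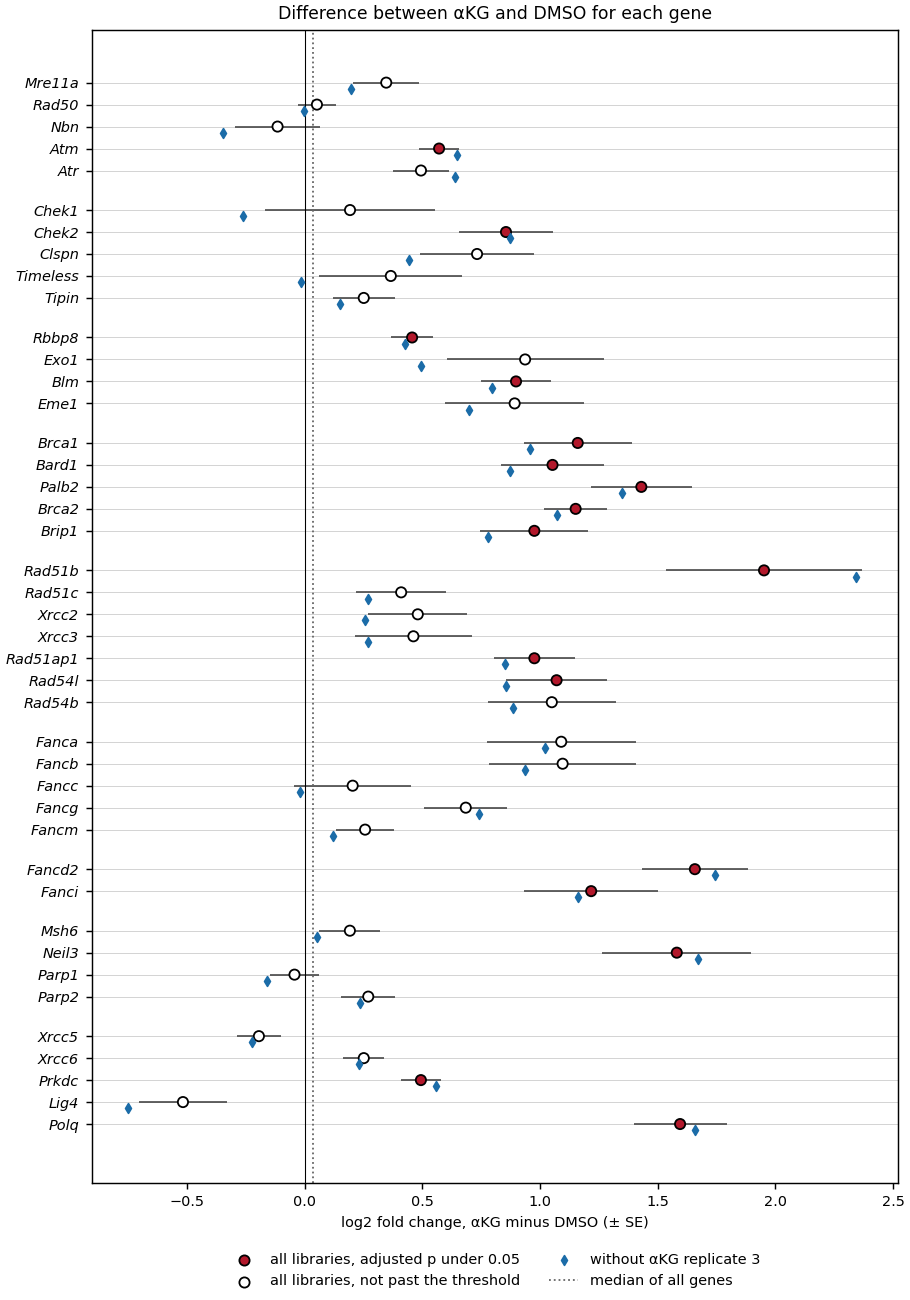
Circles give the log2 fold change of each gene, αKG minus DMSO, with its SE (filled, adjusted p under 0.05), and blue diamonds the same without αKG replicate 3. The 5 BRCA genes, *Fancd2*, *Fanci*, *Polq*, *Neil3* and *Rad51b* lie at 0.98 or above, and the diamonds of *Chek1*, *Nbn*, *Xrcc5* and *Lig4* are among those below 0.

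In the role group named replication checkpoint 1 of 5 genes rose. It was *Chek2*, the kinase activated by ATM, with 53, 50 and 34 against 87, 79 and 80 (0.85 ± 0.20, limma adjusted p = 0.0495). Its call was kept in only 5 of 16 alternatives. The other genes of the group, *Chek1*, *Clspn*, *Timeless* and *Tipin*, did not pass. *Chek1* (chromosome 9, 36708482 to 36727065), the kinase activated by ATR, had 91, 65 and 51 in DMSO and 61, 51 and 145 in αKG. αKG replicates 1 and 2 were inside the DMSO range and αKG replicate 3 was above every other library, so that the log2 fold change was 0.19 ± 0.36 (limma adjusted p = 0.752) with all libraries and -0.26 without αKG replicate 3.

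*Timeless*, which with TIPIN steadies the fork, had 191, 176 and 116 against 172, 141 and 345 (0.37 ± 0.30, limma adjusted p = 0.452). *Clspn*, whose protein claspin presents CHK1 to ATR, had 368, 283 and 220 against 396, 377 and 706 (0.73 ± 0.24, limma adjusted p = 0.0997). *Tipin* had 133, 138 and 119 against 141, 147 and 178. In *Timeless*, *Clspn* and *Tipin* alike, αKG replicate 3 was the highest library, and it exceeded the mean of αKG replicates 1 and 2 by 1.14, 0.87 and 0.30 on the log2 scale.

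Among the genes for end resection and joint molecules 2 of 4 rose. *Blm*, the helicase mutated in Bloom syndrome, had 209, 186 and 147 against 329, 294 and 385 (0.90 ± 0.15, limma adjusted p = 0.0223). *Rbbp8*, which encodes the resection factor CtIP, had 239, 216 and 224 against 308, 301 and 323 (0.46 ± 0.09, limma adjusted p = 0.036). The rise of *Rbbp8* was the smallest of the 17, with 3 αKG libraries close together.

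*Exo1*, a resection exonuclease, had 133, 116 and 81 in DMSO and 156, 148 and 384 in αKG. Its groups did not overlap, but αKG replicate 3 was over 2 times any other library, and the difference did not pass (0.94 ± 0.33, limma adjusted p = 0.115). *Eme1*, a subunit of a structure-selective nuclease, had 53, 34 and 26 against 70, 50 and 89 (0.89 ± 0.30, limma adjusted p = 0.0987).

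Of the damage sensors and apical kinases *Atm* rose. *Atm*, the kinase of double-strand breaks (chromosome 9, 53439149 to 53536740), had 407, 396 and 386 against 607, 635 and 530 (0.57 ± 0.09, limma adjusted p = 0.0159). *Atr*, the kinase of stalled forks, had 389, 405 and 400 against 599, 641 and 459 (0.49 ± 0.12), just short of the threshold (limma adjusted p = 0.0507). *Prkdc*, the catalytic subunit of the end-joining kinase DNA-PK, had 398, 395 and 390 against 553, 610 and 508 (0.49 ± 0.09, limma adjusted p = 0.0268). In all 3 kinases the DMSO libraries lay close together, and αKG replicate 3 was the lowest αKG library.

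The 3 subunits of the MRN complex, which binds broken ends, did not pass. *Rad50* had 711, 775 and 808 against 739, 787 and 852 (0.05 ± 0.08, limma adjusted p = 0.695). *Nbn* had 335, 280 and 292 against 221, 254 and 383 (-0.12 ± 0.18, limma adjusted p = 0.697), with αKG replicates 1 and 2 below and αKG replicate 3 above every DMSO library. *Mre11a* had 216, 209 and 186 against 224, 242 and 319 (0.35 ± 0.14, limma adjusted p = 0.146).

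End joining held genes of both kinds. *Polq*, the polymerase of microhomology-mediated joining (chromosome 16, 37011786 to 37095417), had 144, 99 and 77 against 319, 336 and 288, a 3.02-fold rise (1.59 ± 0.20, limma adjusted p = 0.0071). *Xrcc5* and *Xrcc6*, for the Ku subunits that hold blunt ends, had small differences of opposite sign. *Xrcc5* had 266, 246 and 259 against 216, 224 and 233 (-0.20 ± 0.09, limma adjusted p = 0.196), and *Xrcc6* 247, 233 and 235 against 279, 281 and 291 (0.25 ± 0.09, limma adjusted p = 0.11). In neither did the groups overlap.

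*Lig4*, the ligase that seals Ku-held ends, had the largest negative difference of the 42. It had 230, 266 and 223 in DMSO and 133, 151 and 230 in αKG (-0.52 ± 0.19, limma adjusted p = 0.116). αKG replicates 1 and 2 were below every DMSO library and αKG replicate 3 was within their range. Without αKG replicate 3 the value was -0.75 (limma adjusted p = 0.00336).

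Among the base, mismatch and poly(ADP-ribose) genes 1 of 4 rose. *Neil3* (chromosome 8, 53586867 to 53639065), the glycosylase noted above for its promoter, had 123, 72 and 42 against 261, 205 and 192 (1.58 ± 0.32, limma adjusted p = 0.0363). DMSO replicate 1 exceeded DMSO replicate 3 by 1.53 on the log2 scale, more than in any other gene that rose. *Parp1*, the main sensor of single-strand breaks, had 665, 625 and 618 against 597, 540 and 727 (-0.04 ± 0.11, limma adjusted p = 0.809). *Parp2* had 145, 134 and 125 against 161, 156 and 170, and *Msh6*, a mismatch recognition subunit, 648, 579 and 520 against 641, 564 and 804. Neither passed (limma adjusted p = 0.161 and 0.351).

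The genes differed in how the 3 αKG libraries were ordered. In 12 of the 42 (28.6%, against 10.7% of all genes) αKG replicate 3 was above every other library while αKG replicates 1 and 2 were not both above DMSO. These were *Chek1*, *Eme1*, *Fancc*, *Fancm*, *Msh6*, *Nbn*, *Parp1*, *Rad50*, *Rad51c*, *Timeless*, *Xrcc2* and *Xrcc3*, and none of them passed the threshold. In *Atm*, *Atr*, *Chek2*, *Fancd2*, *Fancg*, *Neil3*, *Polq*, *Prkdc* and *Rad51b*, αKG replicate 1 or 2 was instead the highest. The excess of αKG replicate 3 over the mean of the other 2 αKG libraries ran from 1.36 in *Chek1* and 1.33 in *Exo1* to -0.43 in *Atr* and -1.17 in *Rad51b* on the log2 scale, with a median of 0.37 over the 42 genes and -0.0061 over all genes. With 1 such library this difference has no replicate check.

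Lists of other cell cycle genes were set beside these values. For 23 replication licensing and fork genes, the median shift from the DMSO mean was 0.04, -0.06 and 0.93 in αKG replicates 1 to 3, and 2 of 23 rose, *Pola1* (0.62 ± 0.13, limma adjusted p = 0.0374) and *Pole* (1.05 ± 0.24, limma adjusted p = 0.0445). The replication checkpoint group had median shifts of 0.13, 0.18 and 1.10 and so, like that list, its highest median in αKG replicate 3. The same held for every other role group except the Fanconi core and the Fanconi ID complex. End resection genes were at 0.70, 0.46 and 1.19, and strand exchange genes at 0.92, 0.67 and 1.17. The Fanconi core was at 0.88, 0.60 and 0.65. *Chek2*, the gene of the replication checkpoint group that rose, had its highest value in αKG replicate 1 instead (87, 79 and 80). For 20 mitotic genes the shift was alike in all 3, at 0.87, 0.78 and 0.89, and 8 rose, among them *Cenpe*, *Top2a* and *Mki67*. Over all genes 2.83% rose. The median of the FANCD2–FANCI pair, at 1.54, 1.36 and 1.41, also shifted alike, but its 2 genes had different orders. The excess of αKG replicate 3 over the mean of αKG replicates 1 and 2 was -0.26 in *Fancd2* and 0.17 in *Fanci* on the log2 scale. The BRCA genes were at 1.02, 1.00 and 1.41. DMSO replicate 1 was above DMSO replicate 3 in all of these lists, with medians of 0.28 and -0.27 in the replication list and of 0.53 and -0.44 in the mitotic list. The part of the cycling share of each culture in these values was not tested.

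**Figure D3:**
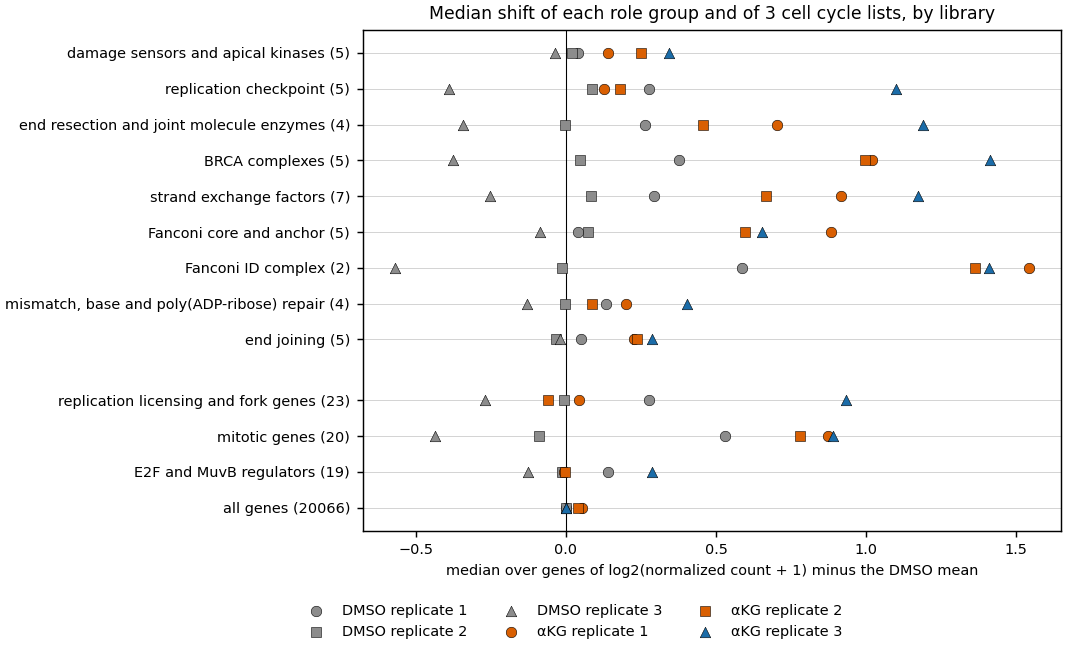
Each point is the median over a list of log2(normalized count + 1) minus the DMSO mean, for 1 library (grey, DMSO; orange, αKG replicates 1 and 2; blue, αKG replicate 3), with the number of genes in brackets. The replication checkpoint and replication lists have αKG replicate 3 far to the right of the other αKG libraries, and the mitotic list and the Fanconi ID complex have the 3 together. αKG replicate 3 is also the rightmost αKG point in the other role groups except the Fanconi core.

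Other repair lists had medians nearer 0. These lists and the genes described here were chosen with earlier results of these data known, so their contrast is only a description. Of 30 other recombination and Fanconi genes 0 fell, against 0.952% of all genes, and 3 rose, against 2.83% (median log2 fold change 0.09). These were *Ube2t*, the E2 enzyme of the Fanconi ligase (0.84 ± 0.15, limma adjusted p = 0.0270), *Wrn* (0.54 ± 0.10, limma adjusted p = 0.0337) and *Gen1* (1.14 ± 0.23, limma adjusted p = 0.0374). Of 18 other checkpoint and damage signaling genes 1, *Rif1*, rose (0.32 ± 0.06, limma adjusted p = 0.0362), and *Topbp1*, the ATR activator, stopped short (0.55 ± 0.13, limma adjusted p = 0.0514).

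None of 23 other mismatch and base repair genes, 15 nucleotide excision repair genes or 6 other end joining genes passed in limma, where 4, 5 and 3 of them had an unadjusted p under 0.05 in either direction, against 28.1% of all genes. Their median log2 fold changes were 0.02, -0.14 and -0.24. In the excision list *Xpc*, a damage recognition gene, had 330, 327 and 357 against 243, 264 and 287 (-0.35 ± 0.10, limma adjusted p = 0.0656). The list of 19 E2F and MuvB regulators holds both activators and repressors of cell cycle transcription. Of these 19, 0 passed in limma while 6 had an unadjusted p under 0.05 in either direction. The smallest p was that of *E2f2*, with 29, 20 and 20 against 50, 36 and 76 (1.15 ± 0.30, limma adjusted p = 0.0609).

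Levels between genes were compared per kb of exon. In DMSO they ran from 1.42 normalized counts per kb in *Rad51b* to 142 in *Rad50*, with a median of 17.1. The 5 highest were *Rad50*, *Msh6*, *Parp1*, *Nbn* and *Xrcc5*, and none of them passed. Of the 21 genes below the median 11 rose (median log2 fold change 1.05), and of the 21 at or above it 6 rose (0.35). The DMSO level enters both quantities, so the relation is given as a description.

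**Figure D4:**
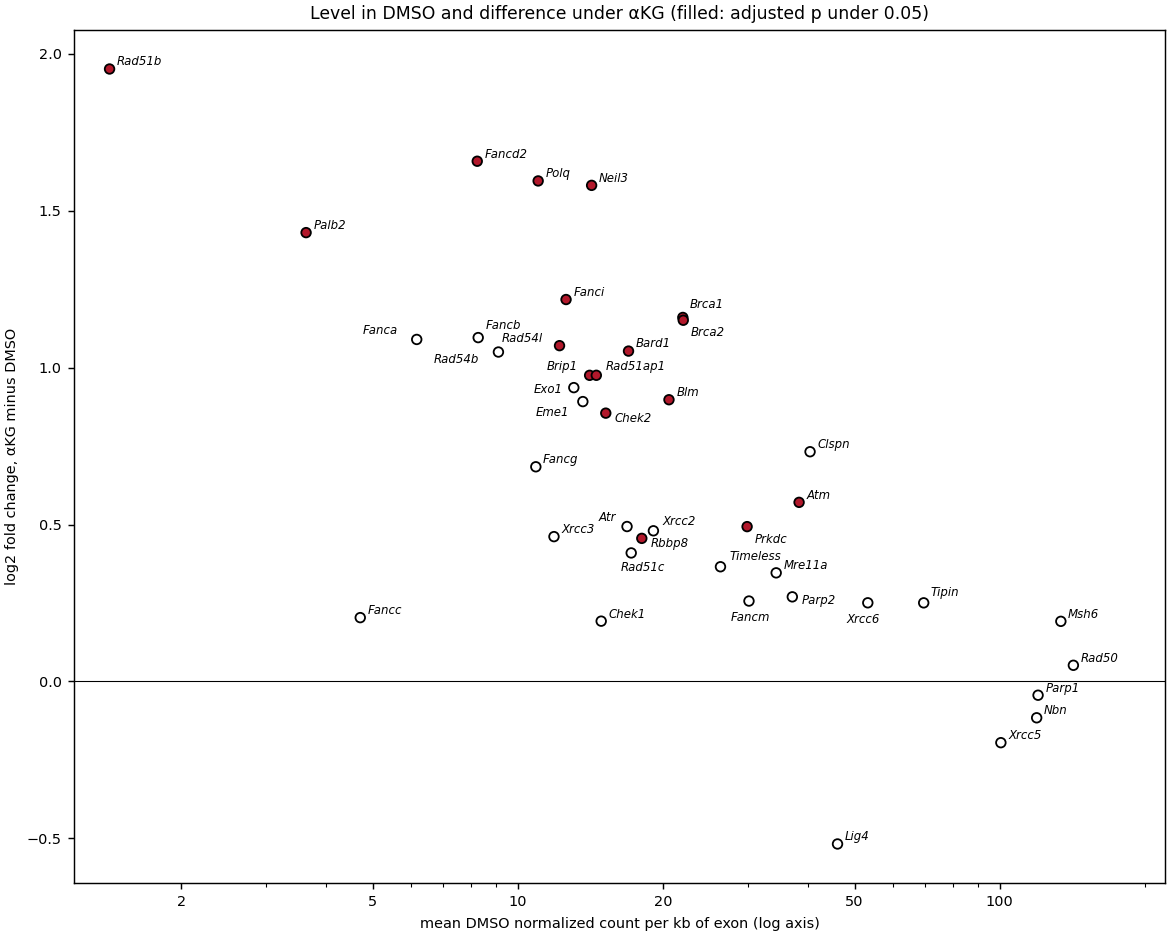
Each point is 1 of the 42 genes, with its mean DMSO normalized count per kb of exon on a log axis and its log2 fold change (αKG minus DMSO) on the other; filled points have an adjusted p under 0.05. Genes above 100 per kb lie between -0.20 and 0.19, and *Rad51b*, at 1.42 per kb, lies at 1.95.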

How the data were processed

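Per the study's methods and the submitters' processing notes, the authors trimmed reads (Trimmomatic 0.39), aligned them to mm10 (GRCm38.p5; STAR 2.7.10a) and counted those touching exons (featureCounts 2.0.3), dropping reads of several genes or loci. The deposited values, named a score here, are counts that the authors normalized with DESeq2 and rounded. Count tests were therefore not run. The value of 1 read, read from the spacing of small numbers, was 0.926 to 1.12, which gave the estimated reads. Depth limits *Rad51b* most, and PCR reads are not independent molecules.

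limma 3.58.1 (R 4.3.3) with a variance trend was fitted to log2(value + 1) of all 20066 genes and 6 libraries, with treatment as the only term; a pseudocount of 1 understates low genes. The fit was also run on simulated reads with known changes. These held no library unlike its group, so that run does not show how the fit behaves with αKG replicate 3. Fold changes in brackets carry their SE. Members, role groups and lists were chosen with earlier results of these data known. Values are printed for genes past the threshold and for the extremes of each role group, with the other members added. Positions are the table's (GRCm38), and 41 of 42 matched GENCODE M21, which gave exon lengths and GC content. Alternatives were pseudocounts of 0.1 and 5, a mean of at least 10, 2 scalings, GC and length correction, a replicate block, limma-voom, no trend and each library left out. 1 gene of the lists is not reported here.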

Additional observations from a re-analysis of the deposited data

How the results depend on the processing

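Of the 42 genes, 17 were called with all libraries, and 0 to 23 with 1 library left out. The count was 9 with a pseudocount of 0.1, 0 in limma without the trend (25 at an unadjusted p under 0.05), 10 in limma-voom on estimated reads and 30 at an unadjusted p. Over all genes, 759 were called, and 0 to 7466 with 1 library left out, 346 with a pseudocount of 0.1, 27 without the trend, 338 in limma-voom and 5648 at an unadjusted p. With a mean of at least 10, either scaling, a pseudocount of 5 or the GC and length correction, 15 to 19 of the 42 were called. With the replicate number as a replicate block, the calls numbered 2 among the 42 and 46 over all genes, or 17 and 1400 when GC and length were corrected as well. The deviations from the group means of libraries 1, 2 and 3 had correlations of -0.0744, 0.1356 and 0.0019 between the groups. With 3 libraries per group and αKG replicate 3 unlike its group, these values cannot show whether a shared number marked a pair. The count of the 42 genes without overlap between groups was 29, and 29 to 33 over its alternatives. With all libraries, 13.7% of all genes lay above DMSO without overlap and 14.6% below. Groups separate more easily with a library left out, and the shares over all genes were not computed for these alternatives. Among 672 values of single genes across the alternatives, 133 no longer passed, 15 newly passed and 11 changed sign, all in genes without a call. *Fancc* was at -0.0625 with quantile normalization and *Parp1* at 0.0763 with the GC and length correction, with or without the block. With 1 library left out, *Rad50* ran from -0.00183 to 0.10, *Nbn* from -0.35 to 0.0492, *Chek1* from -0.26 to 0.48, *Timeless* from -0.0155 to 0.63, *Fancc* from -0.0222 to 0.36 and *Parp1* from -0.16 to 0.0515. The cause was not tested.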
